A study of Mus musculus with 27 samples.

Results

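Lad1 and Prss56 are 2 of the 40129 genes measured in the retina of mice with oxygen-induced retinopathy (OIR). They were chosen by their normalized reads, which were much higher in OIR mice than in age-matched controls at both ages and differed widely from one OIR mouse to the next. Both symbols were found in the deposited table, and both passed the filter on low values (mean over all mice under 1 normalized read), which kept 27137 genes. Since the OIR increase, its spread and the relation to Gfap chose the pair, these are given as descriptions without a test.

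RNA-seq was performed on whole retinas of wild-type C57BL/6 pups (C57BL/6J in the methods of the study), male and female, with 1 library per mouse from one or both retinas after perfusion. OIR pups had spent several days in raised oxygen and were then returned to room air, whereas control pups (nOIR) stayed in room air throughout. Retinas were taken on postnatal day 14 (p14), when the OIR retina has large areas without vessels, or on day 17 (p17), when neovascularization is extensive. The comparisons include 6 nOIR and 6 OIR mice at p14, with 6 nOIR and 8 OIR mice at p17. nOIR p14 mouse S4 was left out, as the methods of the study have it. This mouse had 13.9 normalized reads of Lad1 and 304.4 of Prss56, both within the range of the other nOIR p14 mice. Some mice of a group were littermates, and no label says which.

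Lad1 encodes ladinin 1, a protein of the anchoring filaments that hold an epithelium to its basement membrane, and is best known from the skin. Prss56 encodes a secreted trypsin-like serine protease that Müller glia make in the mouse retina, and its mutations are known for very small eyes. Gfap encodes the intermediate filament of astrocytes, which Müller glia also produce when the retina is stressed, a response called reactive gliosis. In bulk retina, a change in the number of cells of a type and a change in RNA per cell cannot be told apart.

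Both genes lie on chromosome 1 of the mouse genome, with 48635284 bases between their transcription starts in GRCm38.p6. The 250 bases before the start are shown for both members, and for Ecel1 because it neighbours Prss56 and had the pattern most like it over the OIR mice (Pearson's r of levels centred within age). The sequences are RefSeq's for GRCm38.p6, written 5′ to 3′ on the strand of the gene. Capitals mark a match to one of 5 motifs that were picked after the levels had been seen.
Lad1 chr1:135818348-135818597 (+ strand): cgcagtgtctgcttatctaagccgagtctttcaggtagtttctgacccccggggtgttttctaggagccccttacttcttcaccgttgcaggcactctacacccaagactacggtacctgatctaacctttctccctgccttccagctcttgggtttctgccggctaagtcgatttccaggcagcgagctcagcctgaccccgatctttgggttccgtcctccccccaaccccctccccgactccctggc
Prss56 chr1:87183064-87183313 (+ strand): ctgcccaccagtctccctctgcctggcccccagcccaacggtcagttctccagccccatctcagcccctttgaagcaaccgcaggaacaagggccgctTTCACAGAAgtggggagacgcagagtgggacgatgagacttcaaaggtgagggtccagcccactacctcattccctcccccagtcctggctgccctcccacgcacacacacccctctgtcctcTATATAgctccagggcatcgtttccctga
Ecel1 chr1:87156357-87156606 (- strand): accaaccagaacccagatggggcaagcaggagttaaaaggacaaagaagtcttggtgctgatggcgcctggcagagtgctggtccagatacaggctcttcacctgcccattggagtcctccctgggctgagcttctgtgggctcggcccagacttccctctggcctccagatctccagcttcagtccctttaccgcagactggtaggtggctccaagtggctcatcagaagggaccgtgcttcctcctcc

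Each motif was searched on both strands in the whole 300-base RefSeq window, 250 bases before and 50 after the start, of which 32851 were available. The Prss56 window held a STAT motif (TTCNNNGAA) as TTCACAGAA, whose first base is at -152, and a TATA box (TATATA) at -29. Among all windows, 8.30% held the STAT motif and 5.67% the TATA box. The Lad1 and Ecel1 windows held neither, and none of the 3 windows held the AP-1 motif (TGANTCA, 7.81% of all windows), the hypoxia response core (ACGTG, 19.6%) or the GC box (GGGCGG, 35.7%). The Lad1 window had 60.3% G and C with 18 CpG, and the Prss56 window 61.7% with 8, against medians of 52.7% and 7. These matches describe letters only and do not show binding.

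In all mice of the comparisons together, recovered totals ran from 17029536 to 33593428 reads, and the shallowest library was OIR p17 mouse S1. The marker genes of retinal neurons summed to between 863168 and 1590748 normalized reads per mouse, and the rod genes Gnat1 and Sag were among those with the highest levels. Lens markers varied widely within each group, from a summed 99.4 normalized reads to 38792, and OIR p17 mouse S2 had the highest sum.

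Lad1 was near the lower end of measurement in control retinas. The nOIR p14 mice had 7.99, 30.2, 22.3, 35.0, 6.11 and 6.28 normalized reads (S1 to S3 and S5 to S7), which are counts divided by a size factor of each mouse. In nOIR p17 mice S1 to S6, Lad1 was at 20.7, 21.5, 17.3, 26.5, 3.71 and 38.2 normalized reads. Behind these values stood only 4 to 40 reads per mouse, so part of the spread between controls is counting error.

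All OIR mice had more Lad1 than any control of their age. At p14, OIR mice S1 to S6 had 944.7, 181.4, 691.7, 855.1, 1084 and 621.0 normalized reads. At p17, OIR mice S1 to S8 had 231.8, 1590, 1781, 1164, 1265, 872.0, 358.5 and 322.0 normalized reads. Mouse S2 was far below the other OIR p14 mice, while the OIR p17 mice fell into 3 low values (S1, S7 and S8) and 5 that were higher.

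The mean level of Lad1 was 18.0 ± 12.9 normalized reads in nOIR p14 mice (SD, n = 6) and 729.7 ± 316.7 in OIR p14 mice (SD, n = 6), a ratio of 40.6. At p17 it was 21.3 ± 11.3 (SD, n = 6) and 948.1 ± 598.9 (SD, n = 8), a ratio of 44.4. The lowest OIR mouse stood 5.18 times above the highest control at p14 and 6.06 times above it at p17. On the log2(normalized reads + 1) scale the difference was 5.40 (standard error 0.55) at p14 and 5.31 (standard error 0.52) at p17. For background, limma with Benjamini-Hochberg adjustment called 3.18% of the genes tested higher at p14 and 7.39% at p17, with an adjusted p under 0.05.

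Prss56 was already well measured in control retinas. The nOIR p14 mice had 105.7, 118.9, 415.8, 176.0, 133.3 and 215.6 normalized reads (S1 to S3 and S5 to S7). The nOIR p17 mice S1 to S6 had 221.7, 221.0, 281.4, 256.9, 424.0 and 273.0 normalized reads. Each control group held one mouse well above its other mice, S3 at p14 and S5 at p17.

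In OIR mice, Prss56 was mostly but not always above the controls. OIR p14 mice S1 to S6 had 3428, 1850, 3885, 2092, 4391 and 378.9 normalized reads. OIR p17 mice S1 to S8 had 966.0, 4343, 3640, 761.2, 2099, 1443, 490.2 and 331.9 normalized reads. A single OIR mouse overlapped the controls at each age, S6 at p14 and S8 at p17, and the remaining 5 and 7 OIR mice lay above every control of their age.

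The mean of Prss56 was 194.2 ± 115.9 normalized reads in nOIR p14 mice (SD, n = 6) and 2671 ± 1501 in OIR p14 mice (SD, n = 6), a ratio of 13.8. At p17 the means were 279.7 ± 75.1 (SD, n = 6) and 1759 ± 1498 (SD, n = 8), a ratio of 6.29. Log2 differences were 3.60 (standard error 0.53) at p14 and 2.19 (standard error 0.50) at p17. From p14 to p17 the difference moved by -1.41 for Prss56 (standard error 0.73) and by -0.09 for Lad1 (standard error 0.75), which is given without a test.

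**Figure D1:**
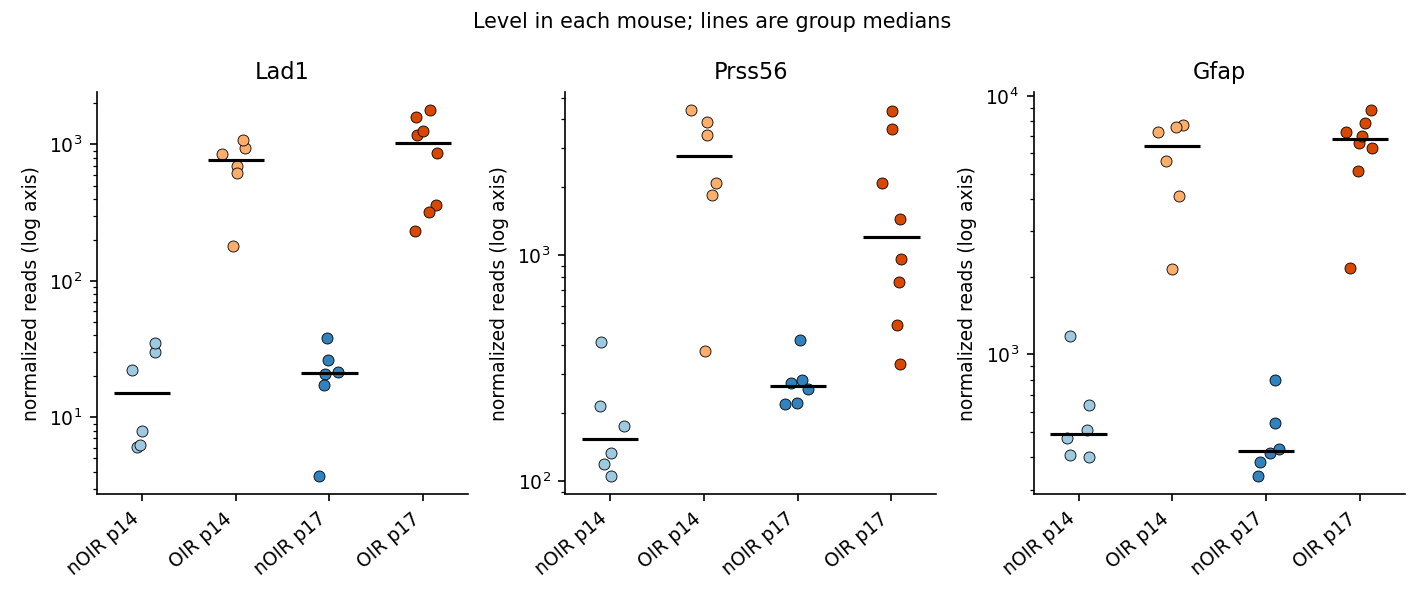
Normalized reads of Lad1, Prss56 and Gfap (log axis) in each of the 26 mice by group, with 1 point per mouse and a line at the group median. Every OIR mouse lies above the controls of its age for Lad1 and Gfap, whereas 1 OIR mouse at each age lies among the controls for Prss56.

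Levels of different genes were compared per kilobase of exon, with the 3400 exonic bases of Lad1 and 2180 of Prss56 in GENCODE's GRCm38 annotation, which is older than the annotation used for counting. On this scale Prss56 had the higher mean level in every group. In nOIR mice it was at 89.1 normalized reads per kilobase at p14 and 128.3 at p17, against 5.29 and 6.27 for Lad1. In OIR mice the 2 genes were closer, with 1225 and 807.0 for Prss56 and 214.6 and 278.8 for Lad1. No other gene shares exon bases with either in that annotation.

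The ages were compared in a contrast that was not itself used to choose the pair. The choice did ask for a rise at both ages and a wide spread between OIR mice. Both make a call for age in OIR mice less likely, so a failure to pass there says little. Ordered by mean level, Lad1 ran nOIR p14, nOIR p17, OIR p14 and OIR p17, and Prss56 ran nOIR p14, nOIR p17, OIR p17 and OIR p14. For both genes the nOIR groups, which are neighbours in this order, did not differ beyond their spread, nor did the OIR groups. From p14 to p17, Lad1 changed by 0.32 in nOIR mice (log2, standard error 0.55, 95% interval from -0.81 to 1.45) and by 0.23 in OIR mice (standard error 0.52, interval from -0.83 to 1.28). The adjusted p was 0.956 and 0.875 (limma, Benjamini-Hochberg over 27137 genes), and an exact permutation test gave p = 0.597 and 0.693 (two-sided). Without OIR p14 mouse S2, the change of Lad1 in OIR mice was -0.14.

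Prss56 changed by 0.66 from p14 to p17 in nOIR mice (log2, standard error 0.53, 95% interval from -0.44 to 1.75, adjusted p = 0.892 by limma). In OIR mice it changed by -0.75 (standard error 0.50, interval from -1.78 to 0.27, adjusted p = 0.455 by limma). Without OIR p14 mouse S6 the change in OIR mice was -1.25, and without OIR p17 mouse S8 it was -0.48. Exact permutation tests gave p = 0.0693 in nOIR and p = 0.302 in OIR mice (two-sided). The unadjusted limma p-values of the 4 age contrasts ranged from 0.142 to 0.666. Neither gene therefore passed the test for a change with age in either condition, and the intervals still hold changes of more than 1 log2 unit in at least one direction. Limma called 0.317% of all genes with age in nOIR mice and 5.91% in OIR mice, in either direction.

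The spread between OIR mice was large for both members. The coefficient of variation of Lad1 was 43.4% at p14 and 63.2% at p17, and that of Prss56 was 56.2% and 85.1%. From the lowest to the highest OIR mouse, Lad1 ranged over 5.98-fold at p14 and 7.68-fold at p17, and Prss56 over 11.6-fold and 13.1-fold. The SD of the log2 level was 0.93 and 1.15 for Lad1 and 1.31 and 1.33 for Prss56.

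Compared with genes whose mean in the same group reached 10 normalized reads, the SD of Lad1 was at percentile 93.4 among OIR p14 mice and 94.1 among OIR p17 mice. Prss56 was at percentile 97.6 and 96.2, and Gfap at 87.3 and 77.2. At p14 a single mouse set much of this spread, since the SD was 0.33 for Lad1 without S2 and 0.56 for Prss56 without S6. Those were 2 different mice. Mouse S6 had 621.0 normalized reads of Lad1, close to the rest of its group, and S2 had 1850 of Prss56, the second lowest value.

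Gfap, the reference for gliosis, was at 1174, 509.2, 407.7, 473.8, 403.0 and 635.3 normalized reads in nOIR p14 mice and at 7734, 2132, 5591, 7225, 7580 and 4090 in OIR p14 mice S1 to S6. In nOIR p17 mice it was at 543.5, 384.3, 339.0, 414.6, 799.7 and 430.3, and in OIR p17 mice S1 to S8 at 2164, 6598, 8794, 5102, 7018, 7236, 7838 and 6300. Its mean was 9.54 times higher in OIR mice at p14 and 13.2 times higher at p17, with no overlap. OIR p14 mouse S2 and OIR p17 mouse S1 had the lowest Gfap of their groups, and these were also the mice with the lowest Lad1.

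Among OIR p14 mice, the log2 levels of Lad1 and Gfap had a Pearson's r of 0.97 and a Spearman's ρ of 0.94 (n = 6). Without S2 the r was 0.92, and without the 2 mice farthest from the median of Gfap it was 0.90. At p17 the r was 0.57 and ρ 0.52 (n = 8), and without S1, the mouse with the shallowest library, r was 0.060, against 0.31 without the 2 farthest mice. OIR p17 mice S7 and S8 had 7838 and 6300 normalized reads of Gfap and were the third and the second lowest in Lad1, next to S1.

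Prss56 followed Gfap less closely, with r = 0.46 and ρ = 0.66 in OIR p14 mice and r = 0.23 and ρ = 0.31 in OIR p17 mice. Without OIR p14 mouse S2, which had the lowest Gfap, the p14 value was 0.82, and without the 2 mice farthest from the median of Gfap the values were -0.17 at p14 and 0.29 at p17. OIR p17 mice S8 and S7 had the lowest Prss56 of that group, with Gfap below the group's median in S8 and above it in S7. The difference between the members in their relation to Gfap was not tested. In nOIR mice, r of Lad1 with Gfap was -0.38 at p14 (ρ = 0.09) and -0.76 at p17 (ρ = -0.20). Without the 2 farthest mice the r of Lad1 turned sign at both ages, to 0.73 and 0.93. For Prss56 in nOIR mice, r was -0.49 at p14 (ρ = -0.43) and 0.66 at p17 (ρ = 0.26). Without the 2 farthest mice the r of Prss56 was -0.52 and -0.13.

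The relation between Lad1 and Prss56 was computed within each group, which gives 4 relations. Since the spread between OIR mice and the relation of each gene to Gfap chose the pair, the values in OIR mice are a description without a test. In OIR p17 mice r was 0.79 and ρ 0.79 (n = 8), with an r of 0.85 without the 2 mice farthest from the median of Lad1. Without OIR p17 mouse S1 it was 0.90, and on normalized reads that were not put on the log2 scale it was 0.85. In OIR p14 mice r was 0.28 and ρ 0.77 (n = 6), and without the 2 mice farthest from the median r was 0.65.

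In nOIR mice neither relation passed the test, with p-values adjusted over the 4 groups. For nOIR p14 mice r was 0.22 (exact permutation p = 0.715, adjusted 0.715) and ρ 0.03 (exact permutation p = 1.0, adjusted 1.0), and r was 0.79 without the 2 farthest mice. For nOIR p17 mice r was -0.80 (exact permutation p = 0.110, adjusted 0.219) and ρ -0.49 (exact permutation p = 0.356, adjusted 0.474), and r was -0.27 without the 2 farthest. The nOIR p17 value turned on mouse S5, which had the lowest Lad1 of its group with the highest Prss56.

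**Figure D2:**
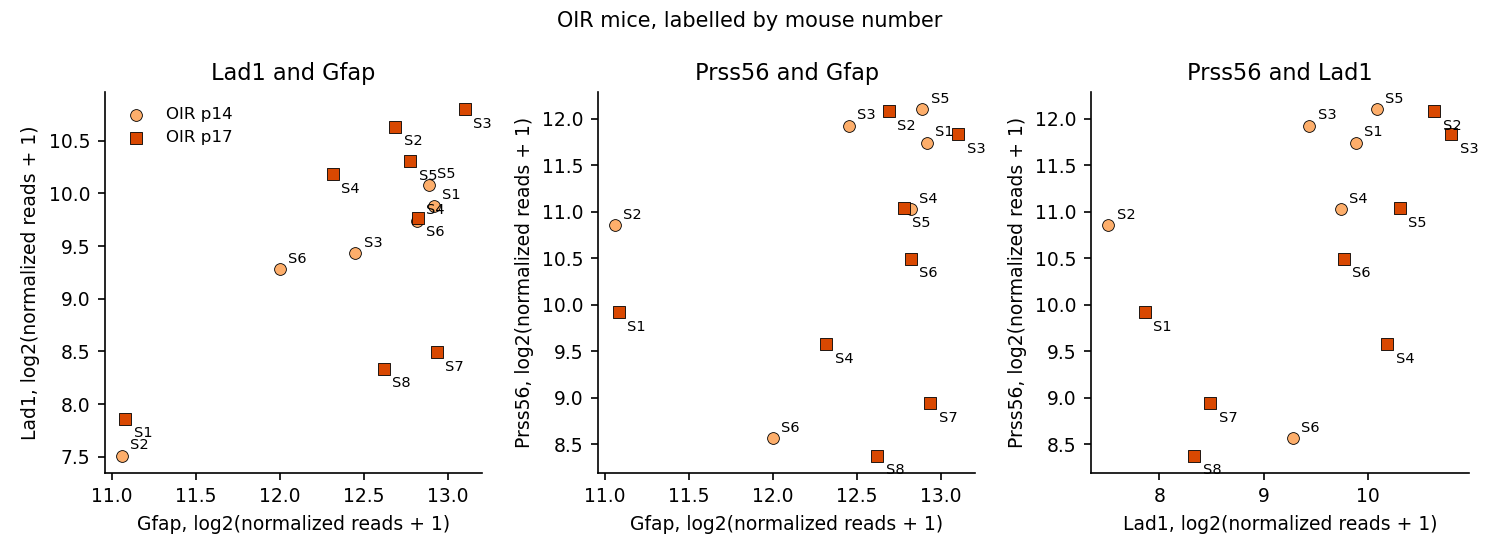
Log2(normalized reads + 1) of Lad1 against Gfap, Prss56 against Gfap and Prss56 against Lad1 in the 6 OIR p14 (circles) and 8 OIR p17 mice (squares), each labelled by mouse number. Lad1 follows Gfap at p14 (r = 0.97), whereas OIR p17 mouse S7 combines high Gfap with low Lad1 and Prss56.

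The genes most like each member were ranked among the 19003 genes whose mean reached 10 normalized reads, by Pearson's r of the log2 levels over the 14 OIR mice, centred within each age. For Lad1 these were Timp1 (r = 0.95), Bcl3 (0.95), A930015P04Rik (0.93), Afg3l2 (0.92), Gm20742 (0.92), Cd44 (0.92), Gadd45b (0.91) and Pcolce (0.91). Timp1 encodes an inhibitor of matrix metalloproteinases, Bcl3 a nuclear cofactor of NF-κB, Cd44 the hyaluronan receptor and Pcolce an enhancer of procollagen cleavage. The highest of so many values is large by selection, and these r describe the 14 mice only.

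Timp1 shared the low mice of Lad1. It had 106.3 normalized reads in OIR p14 mouse S2, against 199.3 to 539.0 in the other OIR p14 mice. In OIR p17 mice S1, S7 and S8 it had 46.7, 129.9 and 140.4, against 331.1 to 604.5 in the other 5. Bcl3 was likewise lowest in OIR p14 S2 (102.0 normalized reads) and in OIR p17 S1, S7 and S8 (62.2, 100.6 and 161.9).

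The genes most like Prss56 were Ecel1 (r = 0.88), Ubxn7 (0.85), Gm45244 (0.85), Rras2 (0.84), 5_8S_rRNA (0.83), Caprin2 (0.83), Aurkb (0.81) and Gm10475 (0.80). None of them was among the first 8 of Lad1. This ranking does not weigh the OIR rise. Ecel1, Rras2, Aurkb and Gm10475 rose in OIR mice at both ages and Caprin2 at p17 only (adjusted p under 0.05 by limma). Ubxn7 (log2 differences of 0.12 and 0.24), Gm45244 (-0.22 and -0.63) and 5_8S_rRNA (-0.34 and 0.13) did not pass at either age. Ecel1, which encodes a membrane metalloprotease known from injured neurons, had 391.5, 324.2, 530.4, 348.6, 535.9 and 80.7 normalized reads in OIR p14 mice S1 to S6, so that S6 was lowest, as for Prss56. In OIR p17 mice S1 to S8 it had 155.6, 316.0, 223.0, 133.0, 302.7, 149.5, 103.3 and 149.4. The 3 highest OIR p17 mice were S2, S5 and S3 for Ecel1 and S2, S3 and S5 for Prss56.

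**Figure D3:**
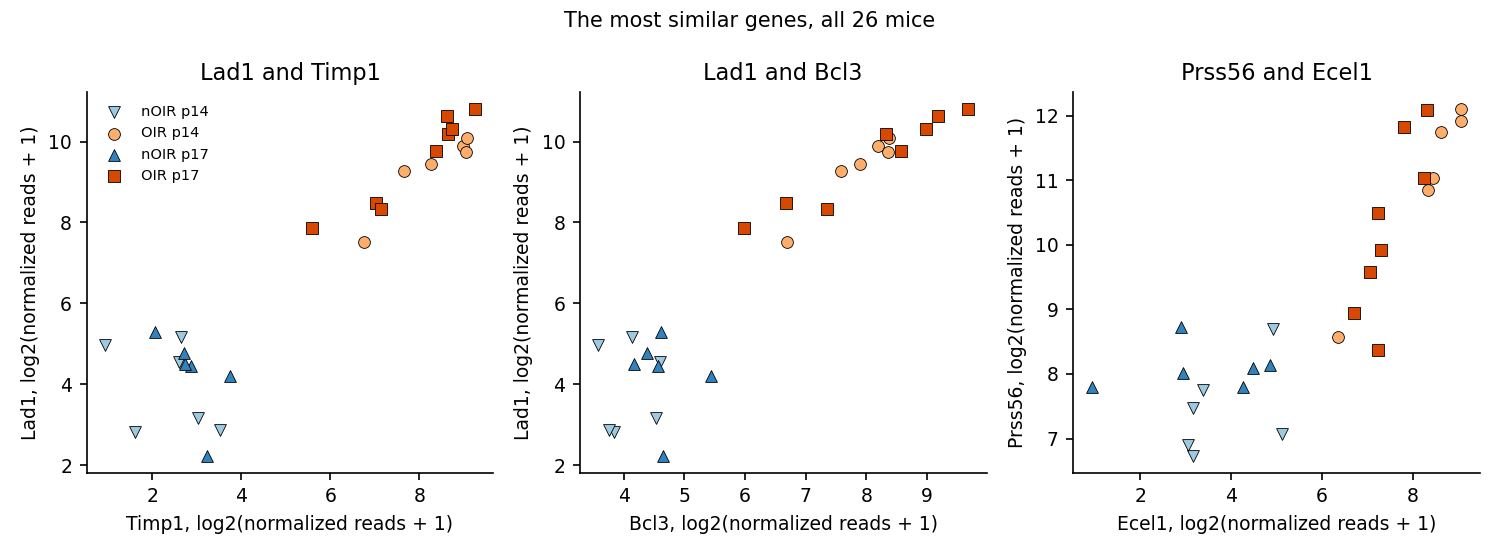
Log2(normalized reads + 1) of Lad1 against Timp1 and Bcl3, and of Prss56 against Ecel1, with 1 point for each of the 26 mice and a colour and shape for each group. Within the OIR mice the points rise together (r = 0.95, 0.95 and 0.88, centred within age).

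Each member ranked in the upper part of the other's list, Lad1 at rank 195 of 19003 for Prss56 and Prss56 at rank 385 for Lad1 (r = 0.60). Gfap stood at rank 125 for Lad1 (r = 0.72) and at rank 2298 for Prss56 (r = 0.33). Stat3, the transcription factor that cytokines of the IL-6 family activate, was at rank 11 for Lad1 (r = 0.91) and 779 for Prss56 (r = 0.48).

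Reactive gliosis was examined with 18 genes, a list that includes Gfap and was drawn up with earlier results of these data known. The study itself names Gfap, Edn2 and Timp1 among the genes most significantly upregulated at p14. The counts of this list are therefore a description. At p14, 15 of 18 rose in OIR mice by limma (adjusted p under 0.05) and none fell, beside 3.18% of all genes called higher and 2.91% lower, with a median log2 difference of 2.44 against 0.02 over all genes tested. At p17, 16 of 18 rose and none fell, beside 7.39% and 5.12% of all genes, with a median of 2.02 against -0.02. Stat3 rose by 1.36 and 1.52 and Vim, which encodes vimentin, by 1.14 and 1.46 at p14 and p17 (log2), and Cp, which encodes ceruloplasmin, by 1.24 and 0.83. Timp1 rose by 5.90 and 5.03 and Bcl3 by 3.77 and 3.46. Edn2, which encodes the peptide endothelin 2, rose by 7.44 and 7.64, and Fgf2, a growth factor, by 2.83 and 1.98. Serpina3n, a protease inhibitor, rose by 3.73 and 3.90 and Lcn2, which encodes lipocalin 2, by 2.42 and 1.36. Of the cytokine pathway, Socs3, a feedback inhibitor, rose by 2.96 and 2.66, Osmr, the receptor of oncostatin M, by 2.47 and 2.06, and the transcription factor Cebpd by 3.13 and 3.52. Nes, which encodes nestin, rose by 1.81 and 2.40. Tnc (0.28 and 0.21) and Lif (1.02 and 1.52) did not pass at either age.

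Gfap was left out of the next values because its relation to the members chose them, and the values are a description. Across the 14 OIR mice, the median r of the other 17 gliosis genes was 0.83 with Lad1, and 14 of the 17 lay in the upper 5% of genes by their r. With Prss56 the median was 0.49, and 11 of 17 lay in the upper 5%. The median over all 19003 genes was 0.02 for Lad1 and 0.01 for Prss56. Nes (0.30), Cryab (0.32) and Tnc (0.14) were the gliosis genes least like Lad1.

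The partners of ladinin in epithelial anchoring were examined with 10 genes of hemidesmosomes and anchoring filaments. By limma, 0 of 10 passed at p14 in either direction, with an unadjusted p under 0.05 for 4 higher and 1 lower, where edgeR called 1 and DESeq2 2 higher. At p17, 3 of 10 rose and none fell. Of all genes, 3.18% were called higher and 2.91% lower at p14, and 7.39% and 5.12% at p17. The 3 genes that rose were Itga6 (1.21) and Itgb4 (1.52), the 2 chains of the hemidesmosomal integrin, and Cd151 (1.08), a tetraspanin that binds it. Col17a1, the hemidesmosomal collagen, had log2 differences of 0.26 and -0.09, and the cytolinkers Dst -0.36 and -0.38 and Plec 0.41 and 0.44, none of which passed. The median of the list was 0.38 at p14 and 0.44 at p17.

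For Prss56, 9 other genes known for eye size were listed, of which 8 were tested. None of the 8 rose or fell at p14 by limma, edgeR or DESeq2 (2 were higher with an unadjusted limma p under 0.05) and 1 rose at p17, the activity-regulated transcription factor Egr1 (1.45, adjusted p = 2.87e-04 by limma), with medians of 0.14 and 0.06. Of all genes, 7.39% were called higher at p17, so that 1 of 8 is not a result about this list. The photoreceptor gene Rbp3 had log2 differences of 0.11 and -0.05, the receptor gene Adipor1 -0.13 and -0.12, and the polarity gene Crb1 -0.15 and -0.15, none of which passed. Mfrp, mutated in very small eyes as Prss56 is, was hardly measured, with group means of 2.89 to 5.16 normalized reads. Tmem98, also linked to eye size, had log2 differences of 0.47 and 0.36 that did not pass.

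Among the other genes with a Prss symbol, 17 of 34 were tested and 2 rose at each age by limma, with none falling, beside 3.18% of all genes called higher at p14 and 7.39% at p17. Prss23 rose by 0.81 and 1.15, and Prss35 by 1.49 and 2.53 (log2 at p14 and p17). The median of the 17 was -0.01 at p14 and 0.09 at p17. Prss36 (-0.14 and 0.14) and Prss38 (-0.01 and 0.09), the other well measured members, did not pass.

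The chromosomal neighbours, 3 genes on each side of each member, were examined too, and 8 of these 12 were tested. At p14, 4 of 8 rose and none fell, and at p17, 4 rose and 1 fell, with medians of 0.79 and 0.74 against 0.02 and -0.02 over all genes tested. Among all genes, 3.18% and 7.39% were called higher and 2.91% and 5.12% lower at these ages. Ecel1, next to Prss56, rose by 4.52 (standard error 0.53, adjusted p = 1.03e-06 by limma) and 4.10 (standard error 0.50, adjusted p = 3.93e-07). Tnnt2, next to Lad1, encodes cardiac troponin T and rose by 2.93 (standard error 0.35, adjusted p = 1.07e-06) and 3.06 (standard error 0.32, adjusted p = 3.29e-08). Csrp1 (0.79 and 1.15) and Phlda3 (0.79 and 1.59) on the other side of Lad1 also rose, and Igfn1 fell at p17 by 0.81.

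The neighbours of each member did not all behave alike. On the side of Prss56 away from Ecel1, Eif4e2 had log2 differences of 0.15 and -0.08 and Chrnd and Chrng were too low to test, as were Alpi and Akp3 beyond Ecel1. Ecel1 lies on the other strand with 26958 bases between its start and that of Prss56, and Tnnt2 lies on the strand of Lad1, 17736 bases beyond its start. Tnnt2 was at rank 32 for Lad1 (r = 0.84) and at rank 16 for Prss56 (r = 0.76), and Ecel1 was at rank 1692 for Lad1 (r = 0.39). Pkp1, which adjoins Tnnt2, had log2 differences of -0.74 and 0.05 that did not pass.

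**Figure D4:**
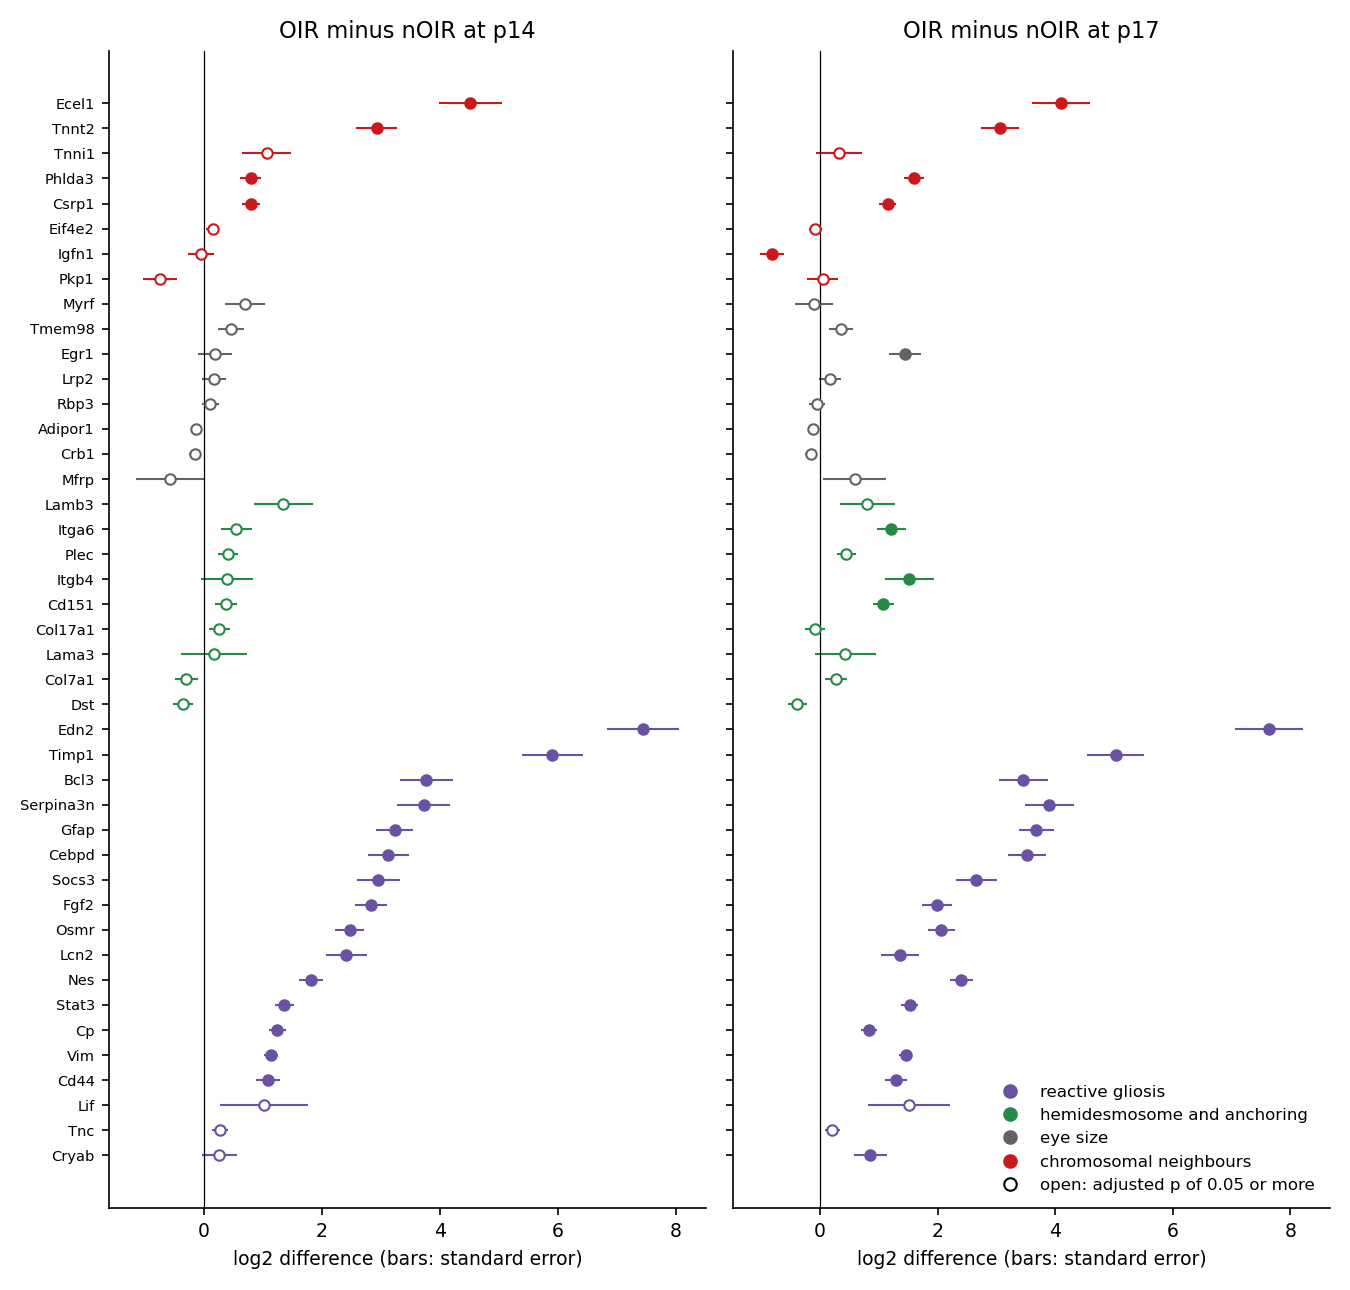
Log2 difference between OIR and nOIR mice (points, with the standard error from limma) for tested genes of 4 lists at p14 and p17, with filled points for an adjusted p under 0.05. The gliosis genes are mostly to the right of 0 and filled, while most genes of the anchoring and eye size lists are open, and Ecel1 and Tnnt2 lead the neighbours.

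Markers of other cell types were read beside these results, and their counts stand against 3.18% of all genes called higher and 2.91% lower at p14, and 7.39% and 5.12% at p17. Of 10 Müller glia markers, 6 fell at p14 and 7 at p17 by limma while 1 rose at p17, and their sum was 71466 to 91952 normalized reads in nOIR p14, 57899 to 68963 in OIR p14, 77679 to 88938 in nOIR p17 and 56875 to 77638 in OIR p17 mice. Of the 9 genes of corneal and conjunctival epithelium, 8 were tested and none rose or fell by limma (with an unadjusted p under 0.05, 0 at p14, and 3 higher and 1 lower at p17), and their sum was 88.5 to 157.8, 94.8 to 233.3, 79.3 to 125.7 and 75.0 to 210.6 in the same order. Krt5 and Krt14, keratins of the basal epithelium, were at 0 in 19 of 26 mice each. Epcam, an adhesion molecule of epithelia, was at a mean of 28.5 and 43.6 normalized reads in nOIR and OIR mice at p14 and at 18.6 and 35.6 at p17 (log2 differences of 0.55 and 0.86), and the corneal keratin Krt12 had log2 differences of -0.38 and 1.15, none of which passed. The mean of Krt5 was 0 in nOIR p17 and 4.18 in OIR p17 mice.

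Lens markers were summed over 10 genes and none passed at either age by limma, also without adjustment, with medians of 1.06 and 1.55 (log2). The sum was 99.4 to 22086 normalized reads in nOIR p14, 122.4 to 7788 in OIR p14, 284.5 to 13205 in nOIR p17 and 385.8 to 38792 in OIR p17 mice. With the lens level as a covariate, the log2 difference was 5.35 and 5.22 for Lad1 and 3.59 and 2.17 for Prss56. Red cell genes rose in 4 of 5 at p17 and in none at p14, with sums of 97.8 to 1214, 195.7 to 779.5, 180.3 to 1074 and 1136 to 15114 in the same order of groups. Astrocyte markers rose in 1 of 3 tested genes at p14 and in 3 of 3 at p17, with sums of 578.7 to 1038, 928.7 to 2316, 665.1 to 905.4 and 905.1 to 2137. Pigment epithelium and ciliary body markers fell in 1 of 10 at each age, with sums of 2235 to 7305, 3296 to 4326, 1494 to 6758 and 1918 to 5517. Retinal neuron markers fell in 2 of 10 at p14 and 4 of 10 at p17. The part of these cell types in the levels of Lad1 and Prss56 was not tested.

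Within the 14 OIR mice, each member was set against 7 marker sums and the total reads, centred within age, which gives 16 relations that were added after the levels had been seen. Since the spread between OIR mice and the relation to Gfap chose the pair, these relations are a description without a test. The strongest was Prss56 with the Müller glia markers, at r = -0.65 and ρ = -0.63. Its r was -0.58 without the 2 farthest mice, -0.65 within p14 and -0.67 within p17. For Lad1 with the same markers r was -0.52 and ρ -0.31, and r was -0.40 without the 2 farthest mice. Lad1 with the epithelial markers had r = 0.35 and ρ = 0.38. This r was 0.41 without the 2 farthest mice, 0.37 within p14 and 0.34 within p17. With total reads, Lad1 had r = 0.41 and ρ = -0.03, and r was 0.11 without the 2 farthest mice. Prss56 with total reads had r = -0.14 and ρ = -0.08, with r at -0.78 within p14 and 0.12 within p17. Prss56 with the red cell markers had r = 0.43 and ρ = 0.24, and r was 0.07 without the 2 farthest mice.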

How the data were processed

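Whole retinas of 27 mice were sequenced by the authors from amplified cDNA of a kit that does not mark strand. Per the labels' processing notes and the study's methods, the authors checked reads with FastQC 0.73, mapped them with STAR 2.7.8a to Gencode M28, counted them on genes with featureCounts 2.0.1 and divided the counts by DESeq2 1.34 size factors in R 4.0.3. The deposited signal is therefore normalized reads per gene and mouse. Group means, log2 fold changes and adjusted p-values of the authors' own comparisons, also deposited, were not used here.

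In each mouse, 100% of the values were multiples of 1 step (within 1e-06), which gave whole reads. The recovered totals were 17029536 to 33593428 reads per mouse (median 30024568), and since PCR copies were not removed, these are not independent molecules. A pseudocount of 1 was added and values were put on the log2 scale, which understates differences of low genes. Genes whose mean reached 1 normalized read were fitted in limma 3.58.1 (lmFit, eBayes with a trend, R 4.3.3) over 4 groups and 26 mice, with Benjamini-Hochberg adjustment over 27137 genes. Mice were taken as independent. Exact permutation tests were run in Python 3.11.15 with scipy 1.17.1, and plots were drawn with matplotlib 3.10.9. Permutation tests of the marker relations over the 14 OIR mice (100000 permutations) are not reported, since the spread between these mice helped to choose the pair.

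The members, the lists and the tests were chosen with earlier results of these data known, and the motifs, the shown sequences and the marker relations after the levels had been seen. Named genes are the members, Gfap, the 8 genes most like each member, the 3 neighbours on each side, and of each list the 4 with the highest mean and any with an adjusted p under 0.05 and a log2 difference above 2 or below -2. Col17a1, Itgb4, Tnc, Lif, Cryab, Mfrp, Tmem98 and the cell markers fall outside this rule and were named after their values had been seen. Some genes of the rule, and 1 gene of the plotted lists, are not reported here, while the counts and medians cover the whole lists. Alternative settings were a smaller pseudocount (0.1), no filter but a value above 0, a filter at 10, inclusion of nOIR p14 mouse S4, the compared groups alone, a replicate block by mouse number, an equal total per mouse, a lens covariate, edgeR 4.0.16 and DESeq2 1.42.0 on the recovered reads, normalized reads in place of log2, and each mouse left out. The scripts were tested on simulated data.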

Additional observations from a re-analysis of the deposited data

Results flagged for a closer look

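The log2 levels of both members in nOIR p14 and nOIR p17 mice were examined for a mouse far from the others of its group. Chance alone flags such a mouse in about 1 of 20 groups. Among nOIR p17 mice, mouse S5 stood apart for both genes, with Lad1 at 3.71 normalized reads (next 17.3) and Prss56 at 424.0 (next 281.4). On the log2 scale the gap was 0.64 of the range for Lad1 and 0.63 for Prss56, just above the critical 0.625. The 3.71 normalized reads of Lad1 are 4 reads, and the log2 scale stretches such low values. The spread between OIR mice helped to choose the pair, so no chance rate applies to it, and the mice that stand apart there are given as a description. In OIR p14, Lad1 in mouse S2 was at 181.4 normalized reads, with the next at 621.0. In the same group, Prss56 in mouse S6 was at 378.9, with the next at 1850.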

How the results depend on the processing

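Under the 10 planned changes of processing and the 26 fits that left out a mouse each, the log2 difference between OIR and nOIR mice stayed between 4.91 and 5.76 for Lad1 and between 1.93 and 4.09 for Prss56. No age change passed the threshold under any of them. The age change of Lad1 in OIR mice ranged from -0.14 to 0.47 with a mouse left out, and it turned negative without OIR p14 mouse S2. That of Prss56 in OIR mice ranged from -1.25 to -0.48, and that of Lad1 in nOIR mice from 0.099 to 0.72. The hemidesmosome genes called higher at p14 numbered 1 with a mean of at least 10, 1 with an equal total per mouse, 1 by edgeR, 2 by DESeq2 and 0 to 1 with a mouse left out. The genes with a Prss symbol called higher at p14 numbered 1 to 3 with a mouse left out, and those called lower at p17 numbered 1 with a mean of at least 10, 1 by DESeq2 and 0 to 1 with a mouse left out. Why these counts moved was not tested.

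With a mouse left out, r with Gfap ranged from 0.92 to 0.99 for Lad1 and from 0.37 to 0.82 for Prss56 at p14, and from 0.060 to 0.74 for Lad1 and 0.080 to 0.38 for Prss56 at p17. In OIR p14 mice r between the members ranged from 0.15 (without S5) to 0.70 (without S2 or S6). The SD of the log2 level in OIR p14 mice ranged from 0.33 to 1.04 for Lad1 and from 0.56 to 1.46 for Prss56. In OIR p17 mice r between the members was 0.85 on normalized reads and 0.73 to 0.90 with a mouse left out.

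Mouse numbers are shared between groups, but deviations of same-numbered mice had correlations of -0.11 to 0.16 over 34 pairs, and 5 of 26 mice correlated best with their own number, so the numbers were not taken as pairs. With a replicate block, the log2 difference was 5.10 at p14 and 5.68 at p17 for Lad1 and 3.54 and 2.56 for Prss56, and the age changes were 0.02 and 0.60 for Lad1 and 0.60 and -0.38 for Prss56 in nOIR and OIR mice. The block changed no call. Of all values recomputed, 1077 were labelled the same, 24 moved and 1 reversed. Another 2 concern the relation of the members in OIR p17 mice, which is a description. For age changes and the relation of the members, the same label meant an unchanged direction and side of the threshold. For OIR differences it meant a shift smaller than the SD of the OIR mice, and for list counts a similar number. For SDs and r with Gfap it meant a shift within a leave-one-out standard error. Leaving out a mouse of a group not compared left a difference unchanged, so such labels could hardly vary. Control values of Lad1 rest on few reads, so their ratios are imprecise, and groups of 6 and 8 mice leave wide intervals for change with age.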
